A study of Homo sapiens with 4 samples.

Results

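Cancer-testis antigens of the MAGE, GAGE, PAGE, XAGE, SSX and CTAG families, with PRAME, DDX43, BRDT and SYCP1, were read on expression arrays of Hs683, an established human glioma cell line. Members were taken by gene symbol: every symbol of a probe set, the group of short probes that reports on a transcript, had to start with one of these family names or be one of the 4 single genes. This gave 56 probe sets for 53 genes or groups of near-identical genes, of 18509 genes and gene groups in all. Where a gene or group had several probe sets, 1 was chosen by its mean over the 4 arrays, the highest being taken, so the levels are given as a description with no test; the difference between the groups had no part in the choice. A further 2 probe sets that also name genes outside these families were left out. All 4 arrays came from Hs683 cells in which QK (now QKI), an RNA-binding protein gene of glial cells, was knocked down. Of these, 2 arrays were of cells transduced with miR-20a and 2 of cells transduced with a scrambled microRNA with no target (miR-NT). The question was how miR-20a alters the transcripts of QKI-depleted glioma cells. The labels do not say whether replicates were separate cultures, so each p-value reflects only how far these arrays scatter, possibly for technical reasons, and 2 arrays a group limit the precision.

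Most of these genes lie on the X chromosome. They are active in the germ cells of the testis, are kept silent in other adult tissues largely by DNA methylation of their promoters, and are switched on again in many tumours, where their peptides can be recognised by T cells. MAGE proteins bind ubiquitin ligases through a shared domain. Type I MAGE genes (MAGEA, MAGEB and MAGEC) have the germ-cell pattern, whereas type II genes (MAGED, MAGEE, MAGEF, MAGEH and MAGEL) are active in many normal tissues and are not cancer-testis antigens in the strict sense. SSX2IP, a centrosomal protein that binds SSX2, entered by the letters of its symbol alone, and the CTAGE genes are a family separate from CTAG1 and CTAG2 (NY-ESO-1 and its relative LAGE-1). All members outside type II MAGE, SSX2IP and CTAGE are called germ-cell-restricted below. The name goes by family alone, and the tissues in which each gene is active were not checked.

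MicroRNAs such as miR-20a pair with messenger RNAs mainly through the seed, bases 2 to 8 of the mature strand. The labels name miR-20a without the arm. The mature 5p sequence in RefSeq (GRCh38.p14, chr13:91351072-91351094, plus strand) is shown with its seed in capitals beside that of miR-17-5p from the same chromosome (chr13:91350618-91350640), because the comparison rests on this microRNA and 8 mature human microRNAs in that table, these and miR-20b-5p, miR-93-5p, miR-106a-5p, miR-106b-5p, miR-519d-3p and miR-526b-3p, share the seed.
hsa-miR-20a-5p: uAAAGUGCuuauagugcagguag
hsa-miR-17-5p: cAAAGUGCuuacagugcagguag
No transcript sequences were used here, so seed matches in the members were not searched.

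The MAGEA genes show how alike some members can be. The RefSeq promoters of MAGEA3 and MAGEA6, 250 bases before to 50 after the gene start, were identical at 300 of 300 bases. All 10 MAGEA genes with a promoter in that table, among them the dim MAGEA4, held the 8 letters GGATGTGA, which 1.16% of the 35116 promoter windows of the same length hold on either strand; the letters were chosen after the MAGEA promoters had been read. Outside MAGEA, 3 of the member genes, MAGEB2, CTAGE4 and CTAGE8, held it. The stretches below are 40 bases each from GRCh38.p14, in the gene's direction and ahead of its start, with these letters in capitals. They stand for genes named by probe sets of high signal (MAGEA3, MAGEA6, MAGEA12), the member with the highest log2 fold change (MAGEA8) and a dim gene (MAGEA4). The probes of those high-signal probe sets can match several transcripts.
MAGEA3 (chrX:152698678-152698717, plus strand): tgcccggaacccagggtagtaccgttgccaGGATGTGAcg
MAGEA6 (chrX:152769766-152769805, minus strand): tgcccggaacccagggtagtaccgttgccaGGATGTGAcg
MAGEA12 (chrX:152733715-152733754, plus strand): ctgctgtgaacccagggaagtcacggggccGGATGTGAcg
MAGEA8 (chrX:149881141-149881180, plus strand): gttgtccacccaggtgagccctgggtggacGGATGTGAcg
MAGEA4 (chrX:151912424-151912463, plus strand): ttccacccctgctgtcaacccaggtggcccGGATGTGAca
Compared position by position without gaps, MAGEA12 matched MAGEA3 at 21 of 40 bases, MAGEA4 at 20 and MAGEA8 at 18. The stretches were set on the 8 letters, so those 8 positions match by construction in each count. These counts are a description and do not measure how alike the promoters are. Promoters were found for 59 of the 70 genes that the member probe sets name; those of CTAG1A, CTAG1B, CTAG2, CTAGE11P, GAGE4, GAGE7, MAGEA1, MAGEA10, MAGEH1, SSX3 and XAGE-4 were not. The number of CG pairs, where DNA methylation acts, overlapped between germ-cell-restricted genes above the array median and dim ones. The 25 genes above it had from 4 to 21 a promoter (median 13) and the 16 dim ones from 1 to 23 (median 12). Where a gene had several promoters, the median used its highest count. Many of the 25 are GAGE copies with 12 or 13 pairs each, placed there by shared probe sets that cannot be assigned to 1 copy. GAGE1 is among them, though the probe set of GAGE1 alone was dim.

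In the arrays as a whole, TMED2, a cargo receptor between endoplasmic reticulum and Golgi, was the gene called among the 12957 tested. QKI measured 8.14 and 7.92 with miR-NT, against 7.52 and 7.08 with miR-20a (log2), and its log2 fold change of −0.73 (SE 0.16) did not pass (limma adjusted p = 0.108); cells with intact QKI were not analysed here. The ACTB 5' control signal, a sign of RNA or labelling quality, was 12.78 and 12.66 with miR-NT, against 11.59 and 10.43 with miR-20a, lowest on miR-20a replicate 2. Of 16 measured glial and neural markers 8 were left out as dim, among them GFAP, OLIG1, OLIG2, S100B, MAG and MOG, and 2, MAP2 and SOX10, lay above the array median on all arrays. The 6 others, among them PDGFRA and SOX2, were kept by the filter but did not lie above the median on all arrays. Vimentin (VIM), of mesenchymal and astrocytic cells, lay between 14.02 and 14.32. Of 9 epithelial and endothelial markers 6 were dim, among them EPCAM and CDH1, while the keratins KRT18 and KRT8 had means of 12.65 and 8.02. Of 7 immune markers 3 were dim, PTPRC among them, while AIF1 and CD3E had means of 7.53 and 7.51, above the array median on all arrays. Of 12 measured germ-cell markers 8 were dim, including DDX4, DAZL, PRM1 and PRM2, and NANOS3 was the marker above the median on all arrays.

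Some cancer-testis probe sets gave high signal in Hs683 cells, above all several of the MAGEA genes. On all 4 arrays, 22 of the 53 members lay above the median of all genes and gene groups. A further 9 were kept by the filter that left out the lowest 30% by mean, and 22 were dim. Of all 18509 genes and gene groups, 8672 lay above the median on all arrays and 5552 were dim. The median percentile was 39.2 for the members and 49.9 for all, so the members as a set did not lie high. Of the 42 germ-cell-restricted members, 16 lay above the median on all arrays. The value table holds no detection calls, so 36 genes of unrelated organs, such as ALB and INS, served as a rough background. Their median was 5.51, and 7 of them lay above the array median on all arrays. KRT10 was the highest at 11.51 and CYP3A4 next at 7.54. With 7.54 as a mark, chosen after these values were seen, 16 members had a higher mean, 12 of them germ-cell-restricted and 4 of type II. Probe sets differ in how well they bind, so a percentile says where a probe set lies on its array and does not order the amounts of different transcripts.

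**Figure D1:**
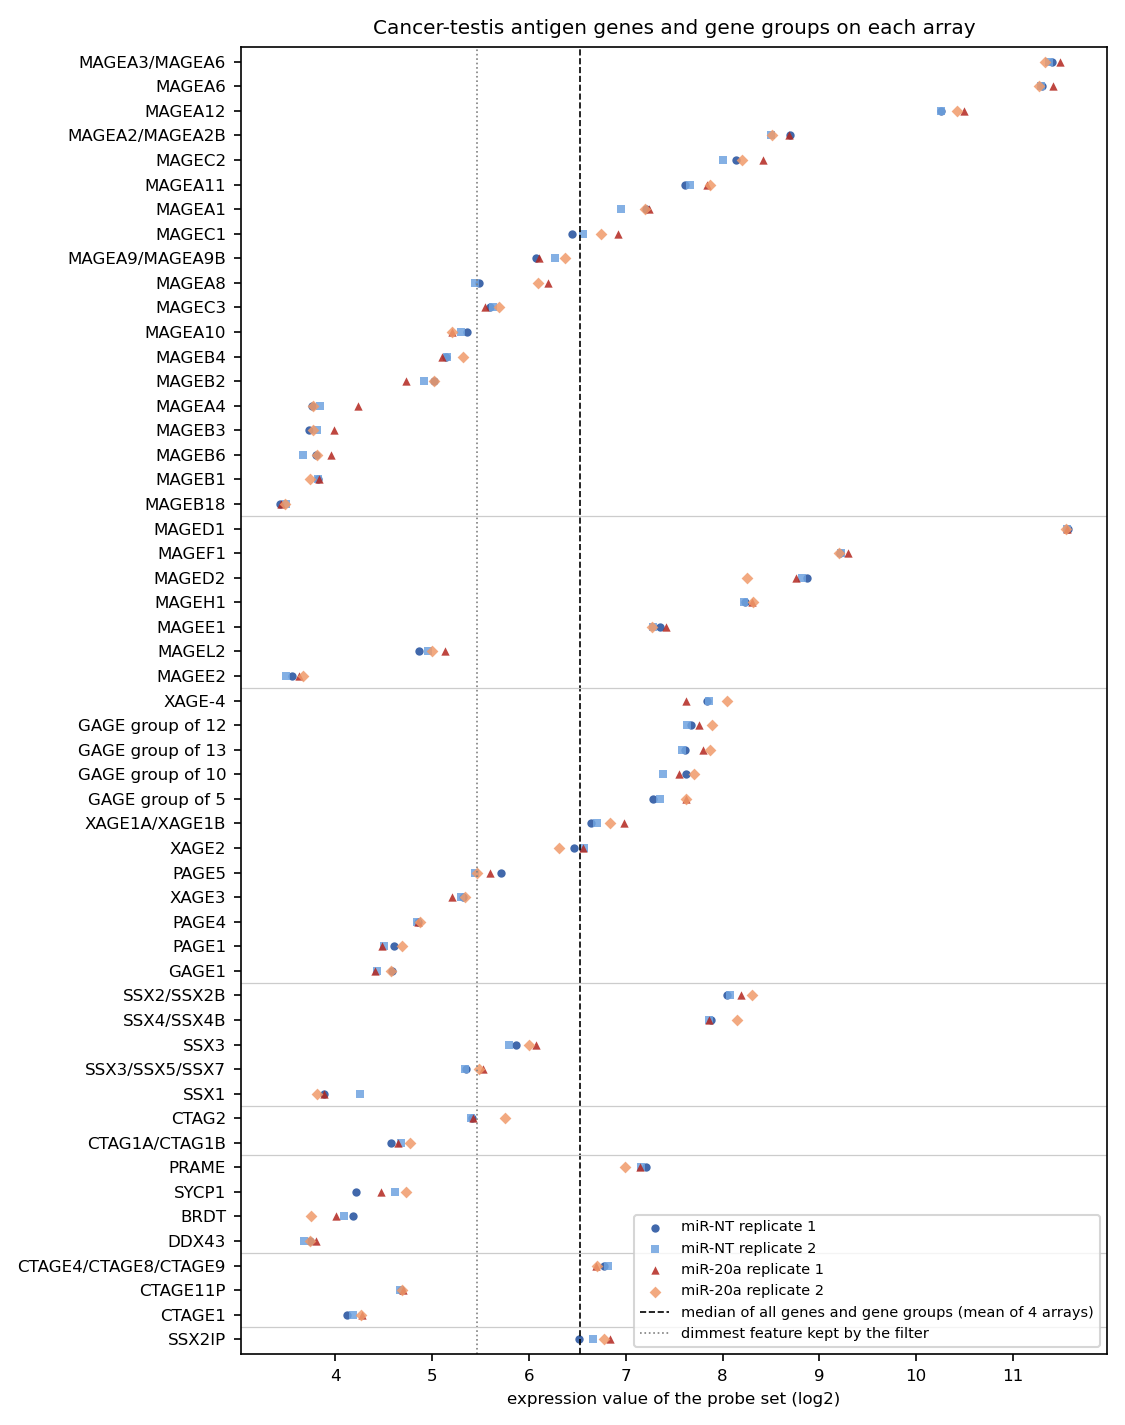
Expression value (log2, horizontal axis) of each of the 53 cancer-testis antigen genes and gene groups (rows, by family) on each of the 4 arrays, a symbol per array; the dashed line is the median of all genes and gene groups and the dotted line the dimmest feature kept by the filter at 5.47. The symbols of a row mostly lie close together, and rows spread from 3.46 to 11.56.

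Among type I genes the probe set of MAGEA3 and MAGEA6, whose proteins drive the TRIM28 ubiquitin ligase, measured 11.40 and 11.38 with miR-NT, against 11.49 and 11.33 with miR-20a, between the 97.0 and 97.5 percentiles of the arrays. A probe set annotated to MAGEA6 alone lay between 11.27 and 11.42, and MAGEA12 between 10.26 and 10.49. The probe set of MAGEA2 and MAGEA2B was at 8.69 and 8.50 with miR-NT, against 8.69 and 8.52 with miR-20a. MAGEC2, also a partner of TRIM28, had a mean of 8.08 ± 0.09 with miR-NT (SD, n = 2), and MAGEA11, a coregulator of the androgen receptor, one of 7.64 ± 0.03. MAGEA1, the founding member of the family, lay under that mark, with a mean of 7.15. Of the type I genes, 7 of 19 lay above the median on all arrays and 8 were dim. MAGEA4 was one of the dim genes, at 3.76 and 3.84 with miR-NT, against 4.23 and 3.77 with miR-20a, as were MAGEA10 and the measured MAGEB genes MAGEB1, MAGEB2, MAGEB3, MAGEB4, MAGEB6 and MAGEB18. The same cells thus gave signals at opposite ends of the arrays from genes of the MAGEA family.

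The order on the X chromosome (RefSeq gene table) was taken among MAGEA and CSAG genes alone, so other genes may lie between them. In that order MAGEA3, MAGEA2B, MAGEA12, MAGEA2 and MAGEA6 follow each other, with the genes CSAG2, CSAG1 and CSAG3, not analysed here, between them. All of these MAGEA genes lay above the array median on every array. MAGEA4 and MAGEA10, which come before this stretch in that order, were dim, and MAGEA1, which comes after it, lay between 6.95 and 7.24. The probe sets of MAGEA3 and MAGEA6 and of MAGEA2 and MAGEA2B read both genes of a pair, so the table cannot assign their signal to 1 of them.

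**Figure D2:**
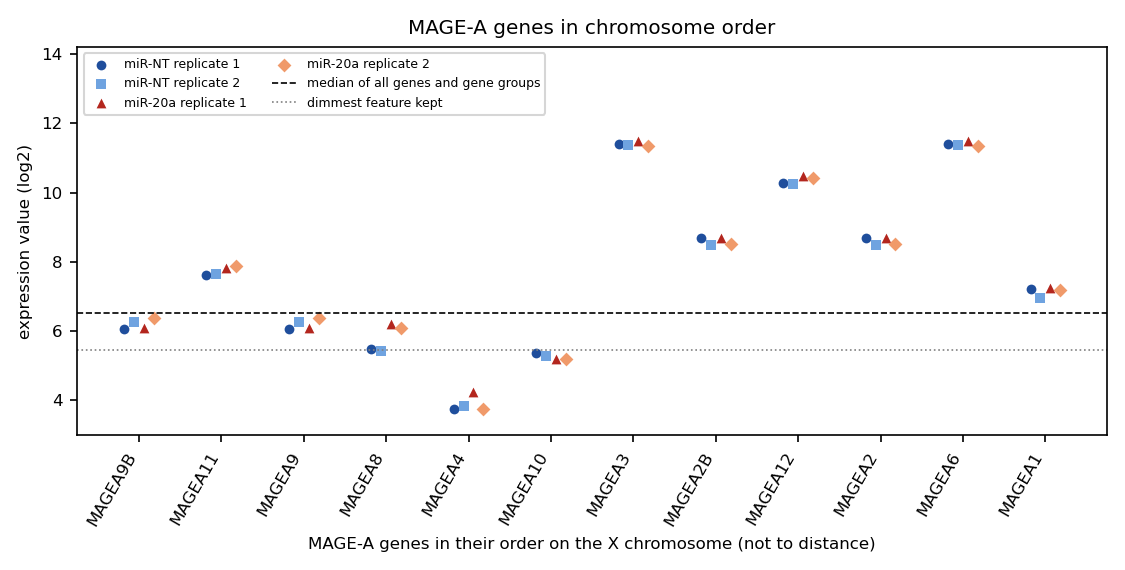
Expression value (log2, vertical axis) of the MAGEA genes in their order along the X chromosome, spaced evenly and not by distance, with a symbol for each of the 4 arrays. MAGEA3 and MAGEA6, MAGEA2 and MAGEA2B, and MAGEA9 and MAGEA9B share a probe set and so show the same values; the run from MAGEA3 to MAGEA6 lies above the dashed median line on all arrays, and MAGEA4 and MAGEA10 lie below the dotted filter line.

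GAGE genes, a set of nearly identical X-linked copies, were read by 4 probe sets that name 5, 10, 12 and 13 genes and share most of them. These had means from 7.47 to 7.74 over all arrays. The probe set annotated to GAGE1 alone was dim, at 4.58 and 4.43 with miR-NT, against 4.40 and 4.57 with miR-20a, although GAGE1 is also named by the groups of 12 and 13. Signal from the shared probe sets therefore cannot be assigned to GAGE1 or to any other single copy. XAGE1A and XAGE1B had a mean of 6.79 and XAGE-4 one of 7.84, while XAGE3, PAGE1 and PAGE4 were dim. SSX genes encode transcriptional repressors known as fusion partners in synovial sarcoma. The groups SSX2/SSX2B and SSX4/SSX4B had means of 8.15 and 7.94, and SSX1 one of 3.96. PRAME, a receptor of a cullin ubiquitin ligase that represses retinoic acid signalling, lay between 6.99 and 7.21. CTAG1A/CTAG1B (mean 4.67), the testis bromodomain protein BRDT (3.75 to 4.18 over the arrays), the synaptonemal complex protein SYCP1 (4.51) and the RNA helicase DDX43 (3.74) were dim.

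Type II MAGE genes were mostly well above the median. MAGED1, an adaptor of neurotrophin receptor signalling, measured 11.57 and 11.56 with miR-NT, against 11.56 and 11.55 with miR-20a. MAGEF1, MAGED2, MAGEH1 and MAGEE1 had means of 9.24, 8.68, 8.27 and 7.33, and MAGEL2 and MAGEE2 were dim. The dim members as a whole ranged from 3.46 (MAGEB18) to 5.42 (the group SSX3/SSX5/SSX7) by mean. Other dim members with means near the filter were XAGE3 (5.29), MAGEA10 (5.27), MAGEB4 (5.18), MAGEL2 (4.99) and MAGEB2 (4.92). Of all members, 17 were read by probe sets of the _x_at kind, whose probes can match several transcripts, and 10 of the 16 germ-cell-restricted members above the median were of that kind.

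None of the 53 members differed between miR-20a and miR-NT past the threshold. Of the 31 that were tested, 0 were higher and 0 lower at a limma adjusted p under 0.05, where the share called over all 12957 features was 0.00772%. At an unadjusted p under 0.05, 4 of the 31 members were higher, where 5.77% of all features were, and 0 were lower, where 13.4% were. The 4 were MAGEA8, MAGEC1 and the GAGE groups of 5 and of 13 genes, which share genes. MAGEA8 was tested only through its values with miR-20a, so the 4 support nothing beyond the description. The lowest adjusted p among members was 0.081 for MAGEA8 and the next 0.183. The log2 fold change of 13 of the 31 was smaller than 0.1 in size, among them those of the strongly read MAGEA3/MAGEA6 (0.02, SE 0.10) and MAGED1 (−0.009, SE 0.093).

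MAGEA8, a type I gene of the same X-linked family, had the highest log2 fold change of all members. It measured 5.48 and 5.44 with miR-NT, against 6.19 and 6.09 with miR-20a, and both miR-20a arrays lay above both miR-NT arrays. The log2 fold change was 0.68 (SE 0.10), or 1.60-fold, the 4th highest of 12957 features, and did not pass (limma adjusted p = 0.081). Its level was low in both groups, from the 29.4 percentile of an array to the 44.0 percentile, and its mean with miR-NT, 5.46, lay just below the dimmest feature kept, 5.47, so it was tested only through its values with miR-20a. With no filter the adjusted p was 0.0824 in limma. Replicate 2 minus replicate 1 was −0.10 within the miR-20a pair, in which the ACTB 5' signals also lay furthest apart, and with that signal in the model the log2 fold change was 0.83 (SE 0.25, limma adjusted p = 0.188). Leaving out miR-20a replicate 1 or miR-20a replicate 2 gave values of 0.63 and 0.73 and put the gene past the threshold (limma adjusted p = 0.000912 and 0.000883). Without miR-NT replicate 1 or miR-NT replicate 2 it did not pass, at 0.70 and 0.66 (limma adjusted p = 0.691 and 0.324); in such fits the lone array is assumed to vary like the other group.

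**Figure D3:**
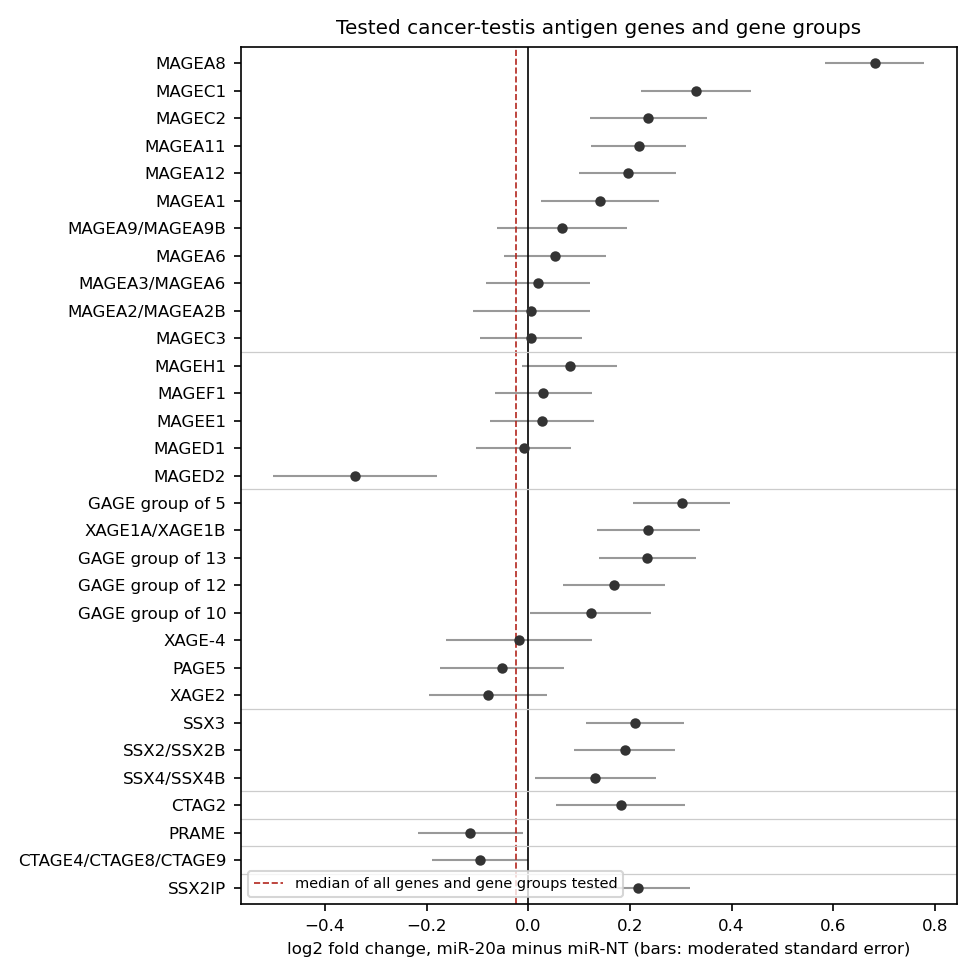
Log2 fold change, miR-20a minus miR-NT (horizontal axis), with the moderated standard error as a bar, of the 31 tested cancer-testis antigen genes and gene groups (rows, by family); the dashed line is the median of all features tested, −0.02. MAGEA8 stands at 0.68, the other members lie between −0.34 and 0.33, and no member passed the adjusted threshold.

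The other tested type I genes had small positive log2 fold changes, while of the dim ones MAGEA10, MAGEB2, MAGEB1 and MAGEB18 had differences below 0, of −0.12, −0.09, −0.04 and −0.0009. MAGEC1 measured 6.44 and 6.56 with miR-NT, against 6.92 and 6.74 with miR-20a, without overlap of the groups (log2 fold change 0.33, SE 0.11, limma adjusted p = 0.193). In all, 258 features had a log2 fold change at least as high. MAGEC2 went from 8.14 and 8.01 to 8.42 and 8.20 (0.24, SE 0.12). MAGEA11 went from 7.62 and 7.66 to 7.84 and 7.87 (0.22, SE 0.09) and MAGEA12 from 10.26 and 10.26 to 10.49 and 10.42 (0.20, SE 0.10), and in these 3 genes too the groups did not overlap. Limma adjusted p of the 3 ranged from 0.267 to 0.302. MAGEA1 (0.14), MAGEA9/MAGEA9B (0.07), MAGEA6 (0.05), MAGEA2/MAGEA2B (0.006) and MAGEC3 (0.005) overlapped between the groups. The sign of several of these small values depended on the processing; those of MAGEC1, MAGEC2, MAGEA11, MAGEA12 and MAGEA1 stayed above 0 in every alternative run. For MAGEA2/MAGEA2B a second probe set gave a difference of −0.34, with 8.76 and 8.62 against 8.56 and 8.15, so its probe sets disagreed.

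The GAGE probe sets, which share most genes, were all higher with miR-20a by value. That of GAGE12B, GAGE12F, GAGE12G, GAGE4 and GAGE7 measured 7.28 and 7.36 with miR-NT, against 7.62 and 7.62 with miR-20a (log2 fold change 0.30, SE 0.10, limma adjusted p = 0.183). The groups of 13, 12 and 10 genes had log2 fold changes of 0.23, 0.17 and 0.12, and miR-20a and miR-NT arrays overlapped in the last. With the ACTB 5' signal added to the model, the groups of 12 and 10 genes turned sign, to −0.02 and −0.07. Those of 5 and 13 genes were at 0.30 and 0.13, and the SE of each was 0.25. The probe set of GAGE1 alone showed a difference of −0.02. XAGE1A/XAGE1B went from 6.64 and 6.71 to 6.98 and 6.84 (0.24, SE 0.10, limma adjusted p = 0.264), while XAGE2 (−0.08), PAGE5 (−0.05) and XAGE-4 (−0.02) overlapped.

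SSX2/SSX2B went from 8.04 and 8.08 to 8.19 and 8.31 (log2 fold change 0.19, SE 0.10), and its second probe set gave a difference of 0.15. SSX4/SSX4B was at 0.13, with 0.08 from its second probe set, and SSX3 at 0.21. With the ACTB 5' signal added to the model, SSX2/SSX2B was at 0.008 and SSX4/SSX4B at −0.28, each with an SE of 0.25. That signal was lower on both miR-20a arrays, so such a fit separates it poorly from the group. CTAG2, also tested only through its values with miR-20a, was at 0.18, with 5.75 on miR-20a replicate 2 and 5.40 to 5.42 on the other arrays. It was at 0.02 without that array, at 0.35 without miR-20a replicate 1 and at −0.30 (SE 0.25) with the ACTB 5' signal in the model. SSX2IP was at 0.22 (SE 0.10, limma adjusted p = 0.292). The CTAGE4/CTAGE8/CTAGE9 group was at −0.10.

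Lower values were few. MAGED2, a regulator of renal salt transport and of p53 activity, measured 8.88 and 8.82 with miR-NT, against 8.76 and 8.26 with miR-20a (log2 fold change −0.34, SE 0.16, limma adjusted p = 0.293). The array with the lowest MAGED2 value, miR-20a replicate 2, also had the lowest ACTB 5' signal. Leaving that array out gave −0.09, and leaving out miR-20a replicate 1 gave −0.59, which passed (limma adjusted p = 0.00177). With the ACTB 5' signal added to the model the sign turned, to 0.40 (SE 0.25). PRAME went from 7.210 and 7.153 to 7.145 and 6.990 (−0.11, SE 0.10, limma adjusted p = 0.529), narrowly without overlap of the groups. Replicate 2 minus replicate 1 was −0.16 within its miR-20a pair and −0.06 within its miR-NT pair. PRAME was at 0.12 (SE 0.25) with the ACTB 5' signal in the model. MAGEH1 (0.08), MAGEF1 (0.03) and MAGEE1 (0.03) of type II had small values.

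By family, all 11 tested type I MAGE members and all 3 tested SSX members had values above 0, as did 5 of 8 in the GAGE, PAGE and XAGE families and 3 of 5 in type II. Over the 31 tested members, 24 values were above 0 (77.4%), where 46.1% of all features were, and the median log2 fold change was 0.12, beside −0.02 for all features. The groups did not overlap in 14 members that were higher (45.2%; 25.1% of all features) and in 4 that were lower (12.9%; 31.3% of all features). The members share sequence and probes, and 2 of them, MAGEA8 and CTAG2, passed the filter only through miR-20a, so these counts support nothing beyond the description. In the marker lists, 7 of 8 tested glial and neural markers had values above 0 (median log2 fold change 0.24). So did all 4 tested immune markers (0.24), all 4 tested germ-cell markers (0.07) and 11 of 19 tested genes of unrelated organs (0.05). Of 3 tested epithelial and endothelial markers 1 was above 0 and 2 below, with a median of −0.02. Of 7 tested mesenchymal and astrocytic markers 3 were above 0, COL1A1, COL1A2 and THY1, and 4 below, with a median of −0.19. Whether these lists bear on the members' values was not tested. Without the filter, 4 of all 53 members were higher at an unadjusted p under 0.05, where 6.16% of 18509 features were, and 0 were lower, where 11% were. In that fit 38 of the 53 members were above 0 (71.7%), where 50.4% of features were, with medians of 0.07 and 0.003. In the 22 dim members the differences ranged from −0.26 (BRDT) to 0.20 (MAGEA4). Quantile normalization, which raised the share of all features above 0 to 54.8%, gave 25 of the 31 above 0 and medians of 0.17 for the members and 0.03 for all features. It also gave 10 members higher at a limma unadjusted p under 0.05, where 1656 of 12957 features were. With the replicate block 7 members were higher (1064 features), and with the ACTB 5' signal in the model 3 (425 features). The main fit gave 4 members and 747 features.

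**Figure D4:**
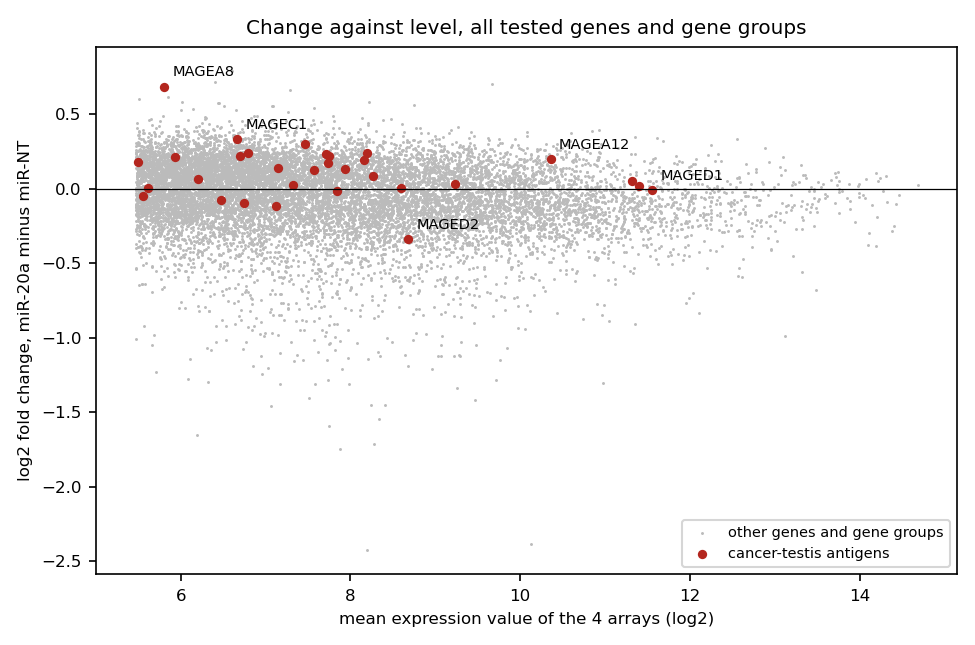
Log2 fold change, miR-20a minus miR-NT (vertical axis), against the mean expression value of the 4 arrays (log2, horizontal axis) for 12957 tested genes and gene groups (grey) and the 31 tested cancer-testis antigens (red). Large negative values occur in the grey points only, MAGEA8 is near the top at a low level, and MAGEA12 and MAGED1 lie near 0 at high levels.

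Other cancer-testis genes gave no call either. Of a list of 86 such genes 66 were measured, 27 were tested and 13 lay above the array median on all arrays, among them IL13RA2, an interleukin receptor frequent in glioma, at 12.02 and 11.96 with miR-NT, against 12.05 and 12.12 with miR-20a. Of the 27, 18 were above 0 and 9 below, with a median log2 fold change of 0.01, and 0 passed in limma. An unadjusted p under 0.05 was found for 2 higher and 2 lower genes, against 5.77% and 13.4% of all features. The smallest p belonged to the scaffold protein SPAG9 (−0.51, SE 0.17), the X-linked antigens SAGE1 (0.32, SE 0.11) and CT55 (0.26, SE 0.09), and the testis lactate dehydrogenase LDHC (−0.26, SE 0.11), with limma adjusted p from 0.199 to 0.257. CTCFL, a germ-cell relative of the insulator protein CTCF, was dim.

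Genes of DNA methylation and chromatin silencing that act on germline genes were measured for 30 of 32 listed, and all 30 were tested. The list also holds TET1, TET2 and TET3, which oxidise methylated DNA and so work against methylation; their log2 fold changes were 0.17, −0.18 and −0.21. Of the 30, 10 were above 0 and 20 below, with a median log2 fold change of −0.07, and 0 passed in limma. An unadjusted p under 0.05 was found for 2 higher and 5 lower genes, beside 5.77% and 13.4% of all features, and 46.1% of all features were above 0. The smallest p belonged to MAX, the partner of MGA and MYC (−0.36, SE 0.10), the methyl-CpG-binding proteins MBD4 (−0.33, SE 0.09) and MBD1 (−0.32, SE 0.11), and SMCHD1, a silencer of the inactive X chromosome (−0.29, SE 0.10), with limma adjusted p from 0.157 to 0.202. MBD4 had a mean of 5.39 with miR-20a, below the dimmest feature kept, 5.47, and of 5.72 with miR-NT. It was thus tested only through its values with miR-NT, so its place among the 5 lower genes supports nothing beyond the description. The maintenance DNA methyltransferase DNMT1, named after its values were seen, was at 10.85 and 10.66 with miR-NT, against 10.73 and 10.53 with miR-20a.

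Proteins that bind the members were measured for 35 of 37 listed genes, several of them also in the lists above, and 28 were tested. A total of 10 were above 0 and 18 below, with a median log2 fold change of −0.07, and 0 passed in limma. Here 2 were higher and 5 lower at an unadjusted p under 0.05, against 5.77% and 13.4% of all features. The lowest p values were those of SNW1, a transcription cofactor (−0.39, SE 0.11), TRIM27, the ubiquitin ligase bound by MAGEL2 (−0.78, SE 0.24), NSMCE4A of the SMC5-SMC6 complex (−0.38, SE 0.13) and PRKAA1, the AMPK subunit marked for degradation by MAGEA3 or MAGEA6 with TRIM28 (−0.40, SE 0.14). TRIM27 measured 8.58 and 8.46 with miR-NT, against 8.16 and 7.32 with miR-20a, lowest on the array with the lowest ACTB 5' signal, whose part in the result was not tested. TRIM28 itself was at 12.04 and 12.02 with miR-NT, against 12.05 and 11.86 with miR-20a (−0.08, SE 0.10).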

How the data were processed

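Total RNA (6 ug) of 4 samples was turned into biotinylated cRNA for Affymetrix arrays, per the labels' protocols. The deposited values are log2 expression values, judged from their range; the submitters' processing notes name affy. Summarisation, background correction, normalization and build: not given in the sources used here. Groups came from the source names and replicate numbers from the titles. Probe sets were named by the platform annotation with current RefSeq symbols (18063 with 1 symbol, 885 with several, 1375 without). Each gene or gene group was represented by its probe set of highest mean; controls and the lowest 30% by mean were left out. Features were compared with limma 3.58.1 in R 4.3.3 (lmFit, eBayes, two-sided, Benjamini-Hochberg over 12957 features, threshold 0.05; 2 residual and 5.39 prior degrees of freedom). No exact permutation test was run, since 2 arrays against 2 reach at best p = 0.333. On simulated arrays of 12957 features, with 200 changed in 20 runs, 2.66% of changes of 0.5 (log2) were recovered, 58.6% of 1 and 90.2% of 2. The simulated noise was normal and independent between features and arrays, with no difference in quality between the groups. The real arrays differ in the ACTB 5' signal, so these shares may not hold for them.

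Members and lists were chosen with earlier results of these data known. All tested members were named, with the 6 highest dim members, 4 genes of smallest p per list, and QKI; others were named after their values were seen. Alternatives were other normalizations, filters, priors, probe set choices, covariates, and arrays left out.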

Additional observations from a re-analysis of the deposited data

How the results depend on the processing

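No member passed in either direction under any alternative except with a miR-20a array left out, which leaves 1 array in that group. In such fits MAGEA8 passed as higher without replicate 1 (0.63) and without replicate 2 (0.73). MAGED2 passed as lower without replicate 1 (−0.59) and did not pass without replicate 2 (−0.09). Over all features, calls ranged from 0 to 320 higher and from 0 to 1657 lower with an array left out. Lower calls were 5 after quantile normalization, 9 after median centring, 3 with the dimmest 50% left out and 8 with an intensity trend and a robust prior, beside 1. With the ACTB 5' signal in the model 1 feature was higher and 5 lower, and 11 of 31 members changed sign without a call. That signal was lower on both miR-20a arrays, so this fit separates it poorly from the group, and the SE of each member was 0.25. The members' median log2 fold change stayed above 0, from 0.07 to 0.18, and from 0.08 to 0.16 with an array left out. It was 0.12 without SSX2IP and the CTAGE genes, an alternative added after seeing the data. The labels do not pair the arrays and 2 pairs cannot show it; with the replicate block 0 features were called lower, and MAGEA8 had a limma adjusted p of 0.139 (same-numbered deviations correlated at 0.267 over all features). MAGEA8 ranged from 0.63 to 0.83 and was not tested with the dimmest 50% left out.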
